A study of Mus musculus with 4 samples.

Results

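The desmosomal cadherin genes of the mouse form a cluster of 9 genes on chromosome 18: the desmocollin genes Dsc3, Dsc2 and Dsc1, followed by the desmoglein genes Dsg1c, Dsg1a, Dsg1b, Dsg4, Dsg3 and Dsg2. Binding sites of the transcription factor p63 were taken for this cluster from the authors' peak lists by position alone: every peak was kept whose summit lay inside 1 of the 9 genes or within 50 kb of it. This gave 17 of the 10616 peaks of the wild-type list and 17 of the 14593 peaks of the alphaKO list, over 711 kb. The equal counts hide different sites. Leaving aside a row of peaks beyond Dsg2 in both lists, 6 sites were listed in both libraries, all in or between the genes. In the wild-type list alone stood 5 more, of which 1 lay just outside Dsc3 at the end of the cluster, and in the alphaKO list alone 4 more. Peaks listed in a single library were also common genome-wide. The counts are too small to show whether this mix is particular to the cluster. Outside the row 54.5% of wild-type and 60.0% of alphaKO peaks overlapped the other list, where 66.6% and 48.4% of the whole lists did.

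The data come from chromatin immunoprecipitation with sequencing (ChIP-seq), using p63 antibody EPR570 on epidermis separated from the dorsal skin of mice at postnatal day 0. The first group was wild type (WT), and the other carried the genotype labelled p63 alphaKO (alphaKO); both were epidermis, cross-linked and sheared alike. The alpha forms of p63 are the splice variants with the longest C-terminal tail; the labels do not state how the alphaKO allele was made, nor the strain, sex and number of the animals. Each genotype had 1 ChIP library, analysed here as a peak list, and 1 input library, which was not analysed here. There was thus no replicate spread, no difference between genotypes could be tested, and every pair of values below is a description of 2 libraries. Differences between their lists cannot be told apart from differences between the libraries.

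Desmosomes are the junctions that rivet neighbouring keratinocytes together. Desmogleins and desmocollins are their transmembrane adhesion proteins: the extracellular parts bind those of the next cell, and the tails bind plakoglobin and plakophilins, which connect through desmoplakin to the keratin filaments. The members are used in layers, with Dsc3 and Dsg3 strongest in the basal and lower layers, Dsc1 and Dsg1 in the upper layers, and Dsc2 and Dsg2 spread over many epithelia and the heart. p63 is the regulator that maintains stratified epithelia, and its loss leaves skin without a stratified epidermis. The desmocollin and the desmoglein genes are known to be read outwards from the stretch that separates them, which places the start of a desmocollin gene at its higher coordinate and the start of a desmoglein gene at its lower one. The gene table used here (RefSeq, GRCm38.p6, the assembly that mm10 names) gives no strand and no exons.

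For each peak the authors deposited the pileup, which is the coverage at the summit, and a fold enrichment, the ratio of that pileup to the caller's local background. The whole lists differed on this scale: the median fold was 8.44 in WT and 15.5 in alphaKO, the median pileup 75 and 106, and the median local background, recomputed from pileup and fold, 8.31 and 5.81. A fold was therefore read against its own list, as the percentage of that list's peaks that were weaker. Of marker genes fixed for the cell types of skin, 4 of 4 basal keratinocyte genes had a peak in the gene or within 10 kb in both lists, 2 (WT) and 1 (alphaKO) of 3 suprabasal genes, 0 and 1 of 5 melanocyte genes, 0 and 2 of 5 dermal fibroblast genes, and 0 and 0 of 3 immune genes, where 26.4% (WT) and 30.6% (alphaKO) of all protein-coding genes had one. Within 50 kb the counts were 4 and 4 of the basal genes, 3 and 2 of the suprabasal, 3 and 3 of the melanocyte, 1 and 3 of the fibroblast and 1 and 2 of the immune genes, where 47.1% and 55.1% of all genes had one. Peaks do not measure transcripts, so these counts do not check the tissue or the genotype.

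Peaks were dense in the cluster as a whole, but unevenly spread along it. Both lists had 23.9 peaks per Mb there, against 5.36 (WT) and 7.01 (alphaKO) per Mb over all protein-coding genes with the same 50 kb flanks. Without the row beyond Dsg2 the densities were 16.8 and 15.3 per Mb. Of the 9 genes, 4 held a summit inside the gene in WT (Dsc3, Dsc1, Dsg3 and Dsg2), where 15.7% of all 21887 protein-coding genes did. In alphaKO 4 also held one (Dsc3, Dsg1a, Dsg4 and Dsg3), against 19.5% of all genes. Only Dsc3 and Dsg3 were in both sets, and 12.1% of all genes were. Within 10 kb the members marked numbered 6 in WT (26.4% of all genes) and 5 in alphaKO (30.6%), with 3 in both (20.3%). Within 50 kb they numbered 7 (47.1%) and 8 (55.1%), with 7 in both (41.0%). Neighbouring members share flanks, so a single peak can mark several of them. Dsg1b was the member with no peak of either list within 50 kb, although the nearest alphaKO summit, 51.6 kb away, only just missed that limit.

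**Figure D1:**
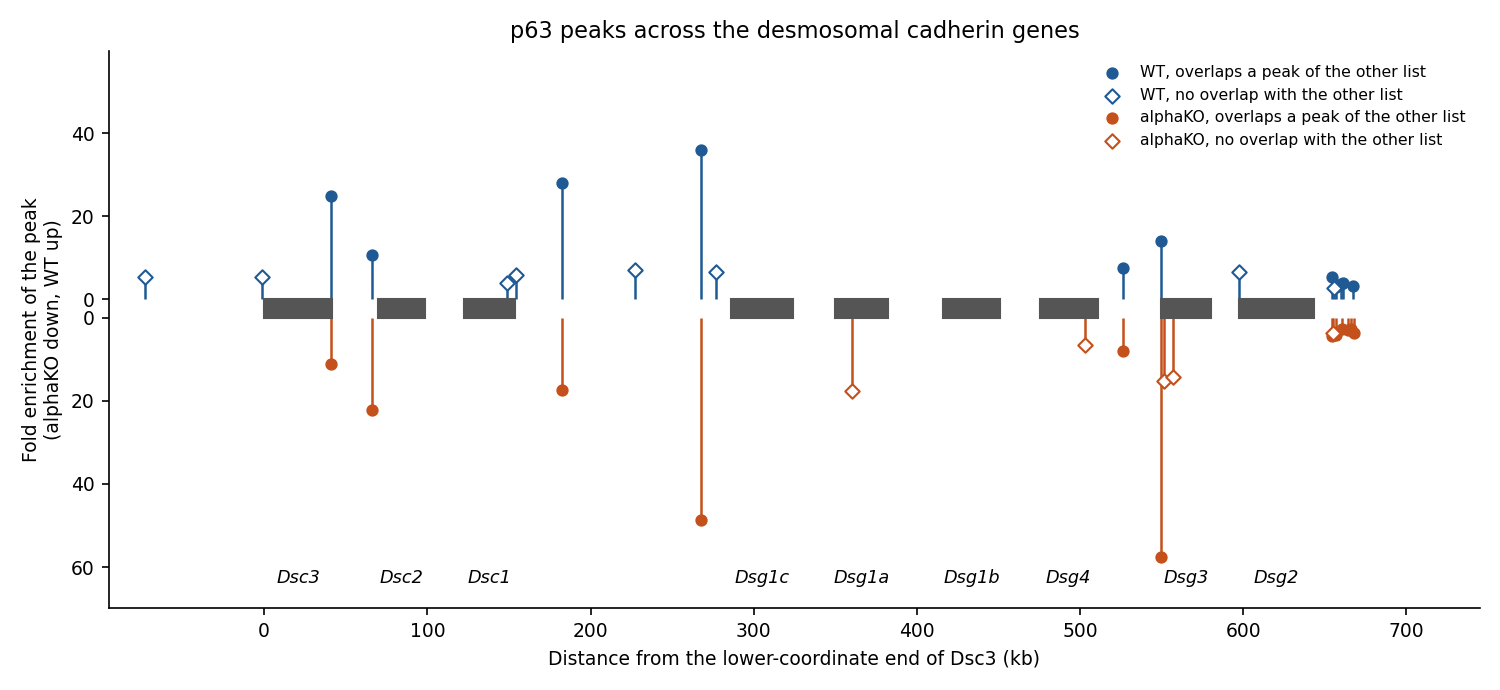
Position of each p63 peak summit (x axis, kb from the lower-coordinate end of Dsc3) and its fold enrichment (y axis, WT upwards, alphaKO downwards), with the 9 genes as grey boxes; filled circles overlap a peak of the other list and open diamonds do not. The tallest peaks of WT stand at the Dsc3 end and between Dsc1 and Dsg1c, those of alphaKO between Dsc1 and Dsg1c and at the Dsg3 end; the WT diamonds left of Dsc3 at fold 5.36 and between Dsc1 and Dsg1c at 7.03 lie beyond 50 kb of any member.

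Dsc3 encodes the desmocollin of the basal layers. A peak covered its higher-coordinate end in both libraries (chromosome 18, 20001912 to 20002477 in WT and 20001974 to 20002471 in alphaKO, mm10), with summits 17 bp apart and 0.251 and 0.234 kb inside the gene. The pileup there was 177 in WT and 86 in alphaKO, and the fold 24.9 and 11.2. In WT this peak was stronger than 91.3% of its list; in alphaKO it was stronger than 31.9% of its list. WT had a further peak 1.48 kb outside the other end of Dsc3, with a pileup of 64 and a fold of 5.46. The alphaKO list had no partner for it, and its nearest summit was 42.7 kb away.

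Dsc2, the most widely used desmocollin, had no summit inside the gene in either list. The nearest site, shared by both, lay between Dsc3 and Dsc2, 3.82 kb outside the lower-coordinate end of Dsc2 in WT and 3.83 kb in alphaKO. Its pileup was 70 in WT and 139 in alphaKO, and its fold 10.7 and 22.1. These values stood above 62.7% and 67.1% of the respective lists, so this site held a similar place in each.

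Dsc1 encodes the desmocollin of the differentiating layers. It was marked in WT by weak peaks: one with a summit 0.316 kb outside its higher-coordinate end (20114890 to 20115253, pileup 40, fold 5.90) and one 4.77 kb inside it (pileup 29, fold 3.85, −log10 q 7.43). They exceeded 31.3% and 11.3% of the WT list. Neither had an alphaKO partner, and the nearest alphaKO summit to them was 28.5 kb and 33.6 kb away.

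The strongest WT peaks of the cluster lay outside all of its genes, in the 133 kb between Dsc1 and Dsg1c where the desmocollin genes end and the desmoglein genes begin. The site nearer to Dsg1c (20228356 to 20228866 in WT, 20228313 to 20228845 in alphaKO) was 18.7 kb from that gene, and its summits were 3 bp apart. Its pileup was 356 in WT and 471 in alphaKO, and its fold 36.0 and 48.6, above 96.6% and 91.0% of the lists. The site nearer to Dsc1 (20143371 to 20143837 and 20143391 to 20143767) was 28.8 kb from that gene, with summits 24 bp apart. Here the pileup was 235 in WT and 174 in alphaKO and the fold 28.0 and 17.5, above 93.2% and 56.1% of the lists. Besides the peak at the Dsc1 end described above, WT had a peak in this stretch 9.77 kb from Dsg1c (pileup 63, fold 6.51), with no alphaKO partner although an alphaKO summit lay 8.98 kb away. A WT peak near the middle of the stretch, 59.0 kb from Dsg1c (pileup 90, fold 7.03), fell outside the 50 kb limit and also had no partner.

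Dsg1c, Dsg1a and Dsg1b are the mouse copies of desmoglein 1, the adhesion protein of the upper layers that is attacked in pemphigus foliaceus and cut by staphylococcal exfoliative toxin. None of the 3 had a WT summit inside the gene. In WT no summit fell in the 249.9 kb from 20237569 to 20487480, which holds Dsg1c, Dsg1a, Dsg1b and Dsg4 whole; 79.5% of the gaps between neighbouring WT summits genome-wide were shorter. In alphaKO a single peak lay in the 3 genes, inside Dsg1a and 10.5 kb from its lower-coordinate end (20321145 to 20321568, pileup 110, fold 17.5, above 56.3% of the list). The nearest WT summit was 83.8 kb away. The longest alphaKO gap, 142 kb, held Dsg1b, and 70.5% of that list's gaps were shorter. These genes are close copies of each other. The labels do not state how reads matching several copies were placed, so calls inside them, and their absence, are uncertain.

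Dsg4, the desmoglein of the hair shaft whose loss gives lanceolate hair, held an alphaKO peak 8.07 kb inside its higher-coordinate end, with a pileup of 53 and a fold of 6.53. It was weak for its list, above 8.87% of alphaKO peaks, and had no WT partner. Between Dsg4 and Dsg3, both lists had a site 15.7 kb from Dsg4 with summits 9 bp apart. Its pileup was 63 in WT and 72 in alphaKO and its fold 7.61 and 7.90, which is above 44.5% of WT peaks and 14.6% of alphaKO peaks.

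Dsg3 encodes the desmoglein of the basal layers, the target in pemphigus vulgaris and the gene mutated in balding mice. A shared peak lay just inside its lower-coordinate end (20510680 to 20511009 in WT, 20510586 to 20511040 in alphaKO), 0.553 and 0.540 kb from that end and with summits 13 bp apart. The pileup was 134 in WT and 420 in alphaKO, and the fold 14.0 and 57.7. The alphaKO value was the highest fold of the cluster in either list and exceeded 93.8% of the alphaKO list; the WT value exceeded 74.7% of the WT list. In alphaKO this peak was followed by others inside the gene, 2.21 kb (pileup 99, fold 15.1) and 7.90 kb (pileup 118, fold 14.4) from the same end. Those peaks stood above 48.9% and 46.3% of the alphaKO list and had no WT partner. Dsg3 thus held 1 WT and 3 alphaKO summits, the most of any member in alphaKO.

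Dsg2, the desmoglein of simple epithelia and heart as well as skin, was marked at its lower-coordinate end in WT alone. The summit lay 0.136 kb inside the gene (20557982 to 20558394), with a pileup of 65 and a fold of 6.66, above 37.3% of the WT list. The lncRNA gene Gm46630 overlaps this end. The nearest alphaKO summit was 40.0 kb away.

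Seen by gene end, 4 of the 9 members had a WT summit within 1 kb of an end (Dsc3, Dsc1, Dsg3 and Dsg2), against 9.30% of all protein-coding genes. In alphaKO 2 had one (Dsc3 and Dsg3), against 6.03%. With the reading directions given above, all of these ends are gene starts. Dsc3 and Dsg3 had such a summit in both libraries. The share of all genes with such a summit in both was not computed.

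The 6 shared sites in or between the genes did not keep the same order in both lists. Across the genome 7054 sites paired 1 to 1, each being the other's best overlap, with median folds of 11.5 in WT and 21.0 in alphaKO. Within this common set, the Dsc3 end was above 87.0% of sites by WT fold and above 23.2% by alphaKO fold, 63.8 percentage points lower. Only 0.170% of all paired sites had a more negative difference. The site 28.8 kb from Dsc1 was above 89.8% and 41.2%, a difference of −48.6 points, and 1.53% of paired sites lay below that. The Dsg3 end moved the other way, from 62.4% to 90.0%, and 90.0% of paired sites had a lower difference than its 27.6 points. The site 18.7 kb from Dsg1c (94.8% and 85.3%), the site between Dsc3 and Dsc2 (45.4% and 52.5%) and the site between Dsg4 and Dsg3 (23.6% and 12.6%) differed by 11.0 points or less. The alphaKO fold was no higher than the WT fold at 16.3% of paired sites genome-wide, and the Dsc3 end and the site 28.8 kb from Dsc1 were among these. With 1 library per genotype, how far such places shift between libraries of the same genotype is unknown.

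**Figure D2:**
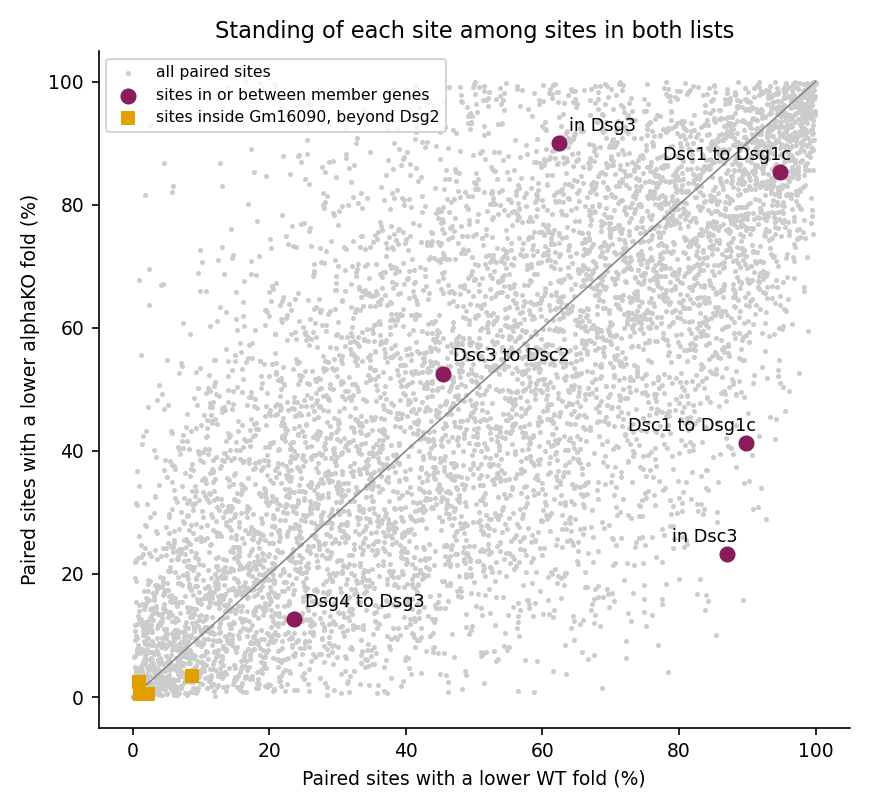
Percentage of the 7054 paired sites with a lower fold, in WT (x axis) and alphaKO (y axis); grey points are all paired sites, the line marks equal standing, circles are the 6 shared sites in or between member genes, and squares are 4 sites inside Gm16090. The Dsc3 end (87.0%, 23.2%) lies far below the line and the Dsg3 end (62.4%, 90.0%) above it; the lower of the points named Dsc1 to Dsg1c is the site 28.8 kb from Dsc1.

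Beyond Dsg2, inside the lncRNA gene Gm16090, both libraries had a row of weak and mostly wide peaks: 6 in WT (20615160 to 20629362) and 7 in alphaKO (20615107 to 20629316), with summits 10.7 to 24.1 kb from Dsg2. The folds ran from 2.75 to 5.30 in WT and from 2.68 to 4.45 in alphaKO, and the pileups from 23 to 45 and from 23 to 36. The median width was 1250 bp in WT and 951 bp in alphaKO, against 385 and 401 bp in the whole lists, and the widest reached 5015 and 1663 bp. The remaining 11 WT and 10 alphaKO peaks of the cluster had median widths of 413 and 405 bp and median folds of 7.61 and 16.3, close to those of their lists. Peaks at least 900 bp wide with a fold under 5, limits chosen after these values were seen, made up 0.631% of the WT list and 0.103% of the alphaKO list. The row held 4 of the 67 in WT and 4 of the 15 in alphaKO. The row makes up all peaks within 50 kb of Dsg2 other than those at the Dsg2 and Dsg3 genes themselves.

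**Figure D3:**
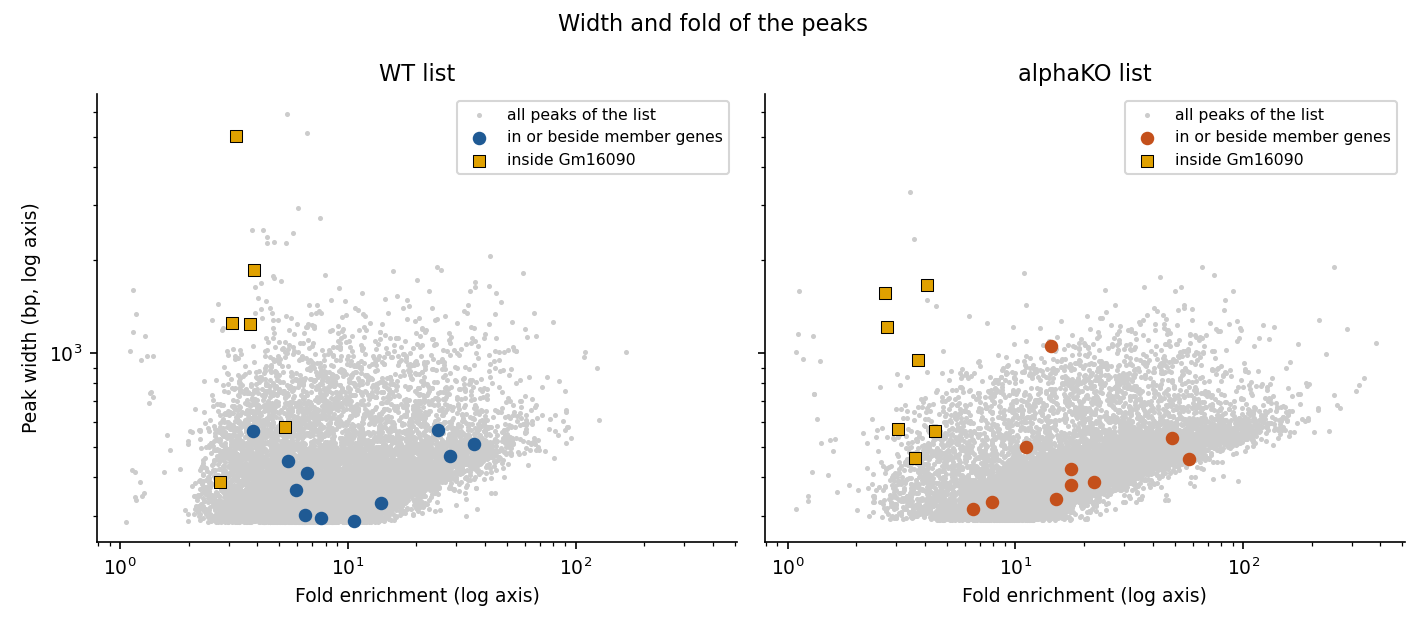
Fold enrichment (x axis, log scale) and width in bp (y axis, log scale) of every peak, WT left and alphaKO right; grey points are the whole list, circles the cluster's peaks in or beside member genes and squares those inside Gm16090. The squares are weak, with folds of at most 5.30 in WT and 4.45 in alphaKO, and reach widths of 5015 and 1663 bp.

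Overlap with the other list was measured as at least 1 shared bp. It held for 11 of 17 WT peaks of the cluster (64.7%, exact 95% interval 38.3 to 85.8) and for 12 of 17 alphaKO peaks (70.6%, 44.0 to 89.7), where the whole lists had 66.6% and 48.4%. Without the row in Gm16090 the shares were 6 of 11 (54.5%, 23.4 to 83.3) and 6 of 10 (60.0%, 26.2 to 87.8). The intervals, which cover counting error only and treat peaks as independent, include the values of the whole lists. In the row, the alphaKO peaks with summits at 20625422, 20626814 and 20628642 all had the same WT partner, the peak of 5015 bp. Outside that row, the WT peaks without a partner had folds of 3.85 to 6.66, all under the WT median. The alphaKO peaks without one had folds of 6.53 to 17.5, on both sides of the alphaKO median.

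The intracellular partners of these cadherins also carried peaks. Of 6 other desmosome genes, those of the plaque and Perp, a p63 target needed for stable desmosomes, 5 had a peak in the gene or within 10 kb in both lists, as did 20.3% of all protein-coding genes. Within 50 kb, 5 had one in WT (47.1% of all genes) and 6 in alphaKO (55.1%). The strongest belonged to Dsp, which encodes desmoplakin (fold 57.8 in WT, 78.9 in alphaKO), Pkp3, a plakophilin (42.1 and 74.6), and Jup, which encodes plakoglobin (35.7 and 62.3, 9.36 and 9.35 kb outside the gene). Pkp1, whose loss causes a skin fragility syndrome, held the most summits, 8 in WT and 7 in alphaKO inside the gene. Pkp2, the plakophilin of heart and simple epithelia, was marked in alphaKO only, by a peak 33.8 kb away (7.98). Of the cadherins of the adherens junction, Cdh1 (E-cadherin) and Cdh3 (P-cadherin) both had peaks, the strongest at a site 7.15 kb outside Cdh3 and 39.3 kb outside Cdh1 (127 and 173). Within 10 kb, the strongest folds of the 6 marked desmosomal cadherins in WT were 5.90 to 24.9, and those of the 5 marked in alphaKO 6.53 to 57.7. Those of the 5 marked genes of plaque and Perp were 23.8 to 57.8 and 29.6 to 78.9. The ranges overlapped only through Dsc3 in WT and Dsg3 in alphaKO. All other marked cadherins, at most 14.0 in WT and 22.1 in alphaKO, lay below every marked gene of plaque and Perp. This order depended on the distance. Inside the genes alone, Perp reached 13.2 in WT, below Dsg3 (14.0). Within 50 kb, Dsg1c reached 36.0 in WT and 48.6 in alphaKO, above Perp (23.8 and 29.6). All of these are values of chosen genes, and the difference between the groups was not tested.

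**Figure D4:**
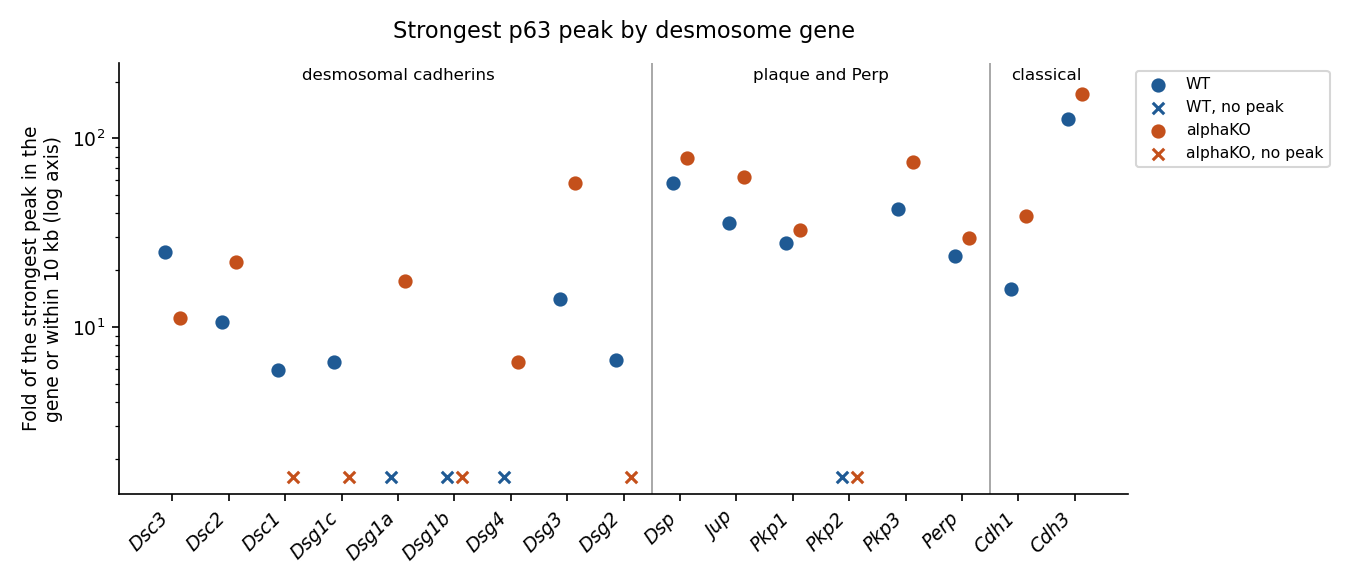
Fold of the strongest peak in the gene or within 10 kb (y axis, log scale) for the 9 desmosomal cadherin genes, 5 plaque genes with Perp, and Cdh1 and Cdh3; circles are WT (blue) and alphaKO (orange), and crosses at the bottom mark no peak. Dsc3 is the gene with a higher fold in WT than in alphaKO among those with a peak in both, and Dsg1b and Pkp2 have a cross for each library.

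Corneodesmosomes are the modified desmosomes of the cornified layer, in which Dsg1, Dsc1 and corneodesmosin are cut by kallikreins to let cells shed. Of 6 genes of this system, 5 had a peak within 50 kb in both lists (41.0% of all genes did) and 3 within 10 kb in both (20.3%). Spink5, which encodes the kallikrein inhibitor lost in Netherton syndrome, had a peak inside the gene (17.9 in WT, 31.4 in alphaKO). Cdsn, which encodes corneodesmosin, had its strongest site 31.4 kb away (17.7 and 38.1). A weaker peak lay 3.49 kb from Cdsn in WT (8.02) and 3.50 kb from it in alphaKO (13.9). The strongest WT peak near Klk7, a kallikrein, was 19.9 kb away (11.4), and its strongest alphaKO peak 4.88 kb away (12.9). WT also had a weaker peak 4.88 kb from Klk7 (5.01). Its peak 19.9 kb from Klk7 was also the strongest WT peak within 50 kb of Klk5, another kallikrein gene. The marked genes are therefore not all separate sites. St14, which encodes the protease matriptase, had no peak within 50 kb in either list.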

How the data were processed

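The p63 ChIP libraries of WT and alphaKO epidermis (1 each) were analysed from the authors' peak lists, which have the columns of MACS2. Reads were aligned to mm10 with Bowtie2 and peaks called with MACS2 (2.1.1.20160309), per the submitters' processing notes; caller options, duplicate handling and the control used are not given. Each row of the deposited lists holds a position, a summit pileup in coverage units, a fold enrichment (ratio), and the p-value and q-value as −log10, per the file headers. The lowest −log10 q listed was 1.31 (WT) and 1.36 (alphaKO). Read totals are not in these lists, so depth is unknown.

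From these values were computed distances to RefSeq genes of GRCm38.p6, overlap (at least 1 bp), ranks within a list, and the local background, as pileup plus 1, divided by fold, minus 1. Shares carry exact Clopper-Pearson 95% intervals, which cover counting error only, since peaks are not independent replicates. No test between genotypes was possible. The members and gene lists were chosen with earlier results of these data known. No other protein-coding gene lies in the region. Named are all 9 members and, for each pathway list, the strongest marked genes in WT and those marked in 1 list. Pkp1, Perp, Klk7, St14, Ttr, Alkbh8, Vmn1r238, Tsnax, Ier2, Actb and the lncRNA genes fall outside this rule and were named after their values were seen. Planned searches for motifs in promoters and for protein identity among members were not run. No sequence of the region is printed. The code for overlap and gene marking was run on simulated peaks whose overlaps were fixed in advance. That checks the code and not the calls in these data. Alternatives were stricter q and fold limits, equal list lengths, other distances and other definitions of overlap; leaving out peaks in Gm16090 was added after the data were seen. Software was Python 3.11.15 with pandas 2.3.3, NumPy 2.4.6, matplotlib 3.10.9 and SciPy 1.17.1.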

Additional observations from a re-analysis of the deposited data

How the results depend on the processing

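Of 164 values under alternatives, 138 (unchanged folds of strongest peaks included) stayed within 1.5 times of the reported count or density, or within the interval of the share, and 26 did not. The fold of each member's strongest peak within 50 kb was computed only under limits that remove weak peaks, which says nothing of its stability. Within 10 kb in place of 50 kb, that fold was 6.51 and not 36.0 for Dsg1c in WT, and 6.53 and not 57.7 for Dsg4 in alphaKO. The number of WT peaks in the cluster, 17, became 11 at a fold of at least 5, 11 without the peaks in Gm16090 (a setting added after the data were seen), 8 within 10 kb of a member and 4 in gene bodies only. The 17 alphaKO peaks became 10 at a −log10 q of at least 10, 10 at a fold of at least 5, 10 without Gm16090, 8 with equal list lengths, 7 within 10 kb and 6 in gene bodies. Member genes with a peak fell from 7 to 4 (WT), from 8 to 4 (alphaKO) and from 7 to 2 (both lists) in gene bodies, and to 5 (alphaKO) and 3 (both) within 10 kb. The alphaKO density relative to the genome, 4.41, was 2.67 at a −log10 q of at least 10, 2.71 at a fold of at least 5, 2.85 with equal lengths and 2.82 without Gm16090. The share of WT peaks with a partner, 64.7%, was 29.4% with equal lengths and 37.5% within 10 kb. The alphaKO share, 70.6%, was 33.3% in gene bodies, 42.9% within 10 kb and 41.2% with summits within 100 bp. Corneodesmosome genes with a peak fell from 5 to 3 in each list within 10 kb. The stricter limits remove mainly the weak peaks in Gm16090; other causes were not tested. No paired analysis was possible because each genotype had 1 ChIP library. Depth is unknown, so absence from a list is not absence of binding.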

Other observations

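Peaks within the same limits of width and fold were also found elsewhere, and they were not all alike. Peaks at least 900 bp wide with a fold under 5 numbered 63 in WT and 11 in alphaKO outside the cluster. In alphaKO, 4 of these lay nearest to Alkbh8 on chromosome 9, but at least 300 kb from it, with folds of 1.08 to 1.38. A further 2 lay nearest to Vmn1r238 on chromosome 18. In WT, 6 lay nearest to Alkbh8, at least 298 kb from it, with folds of 1.10 to 1.40. The local background at the peaks in Gm16090 was 4.28 to 10.9 in WT and 4.85 to 11.1 in alphaKO, against list medians of 8.31 and 5.81, whereas at the alphaKO peaks nearest to Alkbh8 it was at least 11572. The gene on the far side of Gm16090 is Ttr, which encodes the thyroxine carrier transthyretin of liver and choroid plexus. No cause of the row was tested.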
